A study of Mus musculus and Homo sapiens with 34 samples.

Results

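A set of 10 genes of the nuclear receptor family were followed through all 7 deposited count tables: Nr1i2, Nr1h4, Nr0b2, Nr5a2, Nr1h3, Ppara, Pparg, Vdr, Rxra and Esrra. They were chosen by name with earlier results of these data known, and are receptors that sense bile acids, foreign compounds, oxysterols, fatty acids and vitamin D, with their common partner Rxra and the energy-metabolism receptor Esrra. The rows were found by gene symbol (upper case in the human tables). These 10 stood among 21401 genes listed in the mouse tables and 27030 in the human tables. Of the 10, 9 were listed in every table. Nr0b2 was listed only in the 2-week 3154 table, with 0 or 1 count in each of 4 libraries, and is not described further.

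Nuclear receptors are transcription factors that bind DNA through zinc fingers and change their activity when a small lipophilic ligand fills a pocket in the protein. Nr1i2 (PXR) senses foreign compounds and bile acids and turns on genes of drug metabolism and export, mainly in liver and gut. Nr1h4 (FXR) is the bile acid receptor, Nr5a2 (LRH-1) cooperates with it in bile acid synthesis and digestive epithelia, and Nr0b2 (SHP) is the repressor that FXR induces. Nr1h3 (LXRα) senses oxysterols and drives cholesterol export, Ppara drives fatty acid oxidation, Pparg drives lipid storage, and Vdr responds to vitamin D. Rxra is the partner with which PXR, FXR, LXR, the PPARs and VDR pair on DNA. Esrra (ERRα) is an orphan receptor that drives mitochondrial genes together with the coactivator PGC-1α. Hnf4a, an orphan receptor of liver and gut epithelium that was deleted or induced in part of these cultures, is a further member of the family.

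RNA sequencing covered 34 libraries in 17 groups of 2, with 22 mouse and 12 human libraries. The mouse cultures come from lung tumours, and each culture is 1 line. The 3154 organoids carry p53frt, Rosa-FSF-CreERT2 and Hnf4aflox, in controls and treated cultures alike. They received ethanol or 4-hydroxytamoxifen (4OHT, 2 mM for 2 days per the labels), which switches on the Cre expressed from the Rosa locus and removes floxed Hnf4a, and RNA was taken 2 weeks later. A separate 3154 experiment of 48 hours had ethanol or 4OHT, each alone or with 3 nM of the inhibitor MRTX1133. For this experiment the 4OHT dose and its timing are not given. For 3154, 48 hours below names this experiment and not the time since 4OHT. The 1027B organoids and the 3311 cell line carry p53frt, Rosa-FSF-CreERT2, Foxa1flox and Foxa2flox, and no deleting treatment is named for them. For 48 hours, 1027B had no drug, trametinib, which inhibits MEK, at 10 nM, or MRTX1133 at 20 nM. The 3311 line had a control treatment or 50 nM trametinib for 48 hours, and the count columns of its controls are named DMSO. All organoids were kept in medium with L-WRN conditioned medium. The human lung adenocarcinoma lines H358 and H1651 had control medium or 20 nM trametinib for 48 hours. H1651 cells with a lentiviral HNF4α construct had no doxycycline or 1 µg/mL doxycycline for 7 days. The comparisons ask how this receptor set stood in each culture and how it moved when Hnf4a was lost or induced, or when the pathway through MEK was inhibited.

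Promoter windows of the 3 receptors that fell in every Hnf4a deletion experiment are shown first, because HNF4α and most receptors of this set bind variants of 1 short element. Each line gives the 250 bases before a RefSeq start site (GRCm38.p6), read 5′ to 3′ on the strand of the gene. Capitals mark a match to the nuclear receptor hexamer AGGTCA or to the HNF4-type core AAGTCCA, on either strand.

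Nr1i2, chr16:38294825-38295074 (- strand): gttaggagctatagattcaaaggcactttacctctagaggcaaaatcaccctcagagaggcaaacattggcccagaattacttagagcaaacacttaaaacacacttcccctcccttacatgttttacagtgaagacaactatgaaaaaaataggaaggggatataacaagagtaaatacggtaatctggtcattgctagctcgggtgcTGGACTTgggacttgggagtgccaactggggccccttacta
Nr5a2, chr1:136960449-136960698 (- strand): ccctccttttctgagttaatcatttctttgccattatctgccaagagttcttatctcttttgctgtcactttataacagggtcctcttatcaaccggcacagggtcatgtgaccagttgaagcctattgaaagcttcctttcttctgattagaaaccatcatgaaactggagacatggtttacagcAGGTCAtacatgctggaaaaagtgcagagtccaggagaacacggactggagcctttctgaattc
Pparg, first window, chr6:115360894-115361143 (+ strand): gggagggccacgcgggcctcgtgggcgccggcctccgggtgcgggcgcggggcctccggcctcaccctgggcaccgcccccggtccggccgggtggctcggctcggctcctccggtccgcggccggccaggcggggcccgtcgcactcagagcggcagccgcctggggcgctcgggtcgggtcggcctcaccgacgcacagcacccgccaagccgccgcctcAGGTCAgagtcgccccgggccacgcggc
Pparg, second window, chr6:115362099-115362348 (+ strand): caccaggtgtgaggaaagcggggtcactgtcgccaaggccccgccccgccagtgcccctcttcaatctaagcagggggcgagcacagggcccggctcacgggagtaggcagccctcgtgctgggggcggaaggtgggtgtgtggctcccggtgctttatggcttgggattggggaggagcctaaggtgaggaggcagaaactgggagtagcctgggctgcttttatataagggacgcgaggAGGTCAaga

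In the Nr1i2 window the core lies on the opposite strand, so it reads TGGACTT, and its first base is 41 bases before the start. In the Nr5a2 window the hexamer begins 64 bases before the start, and in the Pparg windows it begins 28 and 9 bases before. Of the 3 receptors, only windows with a match are printed: Nr5a2 and Pparg each have 1 more window, and neither held one. All 10 receptors had a promoter in the RefSeq table, in 15 windows of 300 bases (250 before and 50 after the start). Of these 15 windows, 5 held the hexamer and 1 held the HNF4-type core. The hexamer is also in a window of Nr1h4 and, at 2 places, in a window of Rxra, and these windows are not printed. Nr1h4 was tested at 2 weeks alone and Rxra in all 3 deletion comparisons, and neither was called. None of the 15 held AGGTCANAGGTCA, 2 hexamers with 1 base between them. Over all 32851 windows of that length in the table, 16.3% held the hexamer, 4.17% the core and 0.0396% the direct repeat. The matches are letters in these windows only, and no binding was measured.

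Library totals ran from 19692517 to 45284286 counts. Values are TMM-scaled CPM, a gene's counts scaled to a common library size and composition, and a gene was called when its Benjamini-Hochberg adjusted p from the edgeR quasi-likelihood test was under 0.05. Whether the libraries of 2 groups overlap is given as a description. With 2 libraries a group, absence of overlap also arises by chance and adds no support to a call. Its share over all genes was not counted. Hnf4a stood at 315 and 427 CPM in the ethanol libraries at 2 weeks and at 53.5 and 68.0 CPM after 4OHT, and doxycycline took HNF4A in H1651 from 35.9 and 47.1 to 94.4 and 96.8 CPM. H358 had no HNF4A count in any library. All 4 epithelial markers (Epcam, Cdh1, Krt8, Krt18) were present in every library, with summed levels of 2509 to 8622 CPM. The hepatocyte list was high in 3311 controls (862 to 1046 CPM, nearly all Alb) and in H1651 (763 to 1435 CPM, nearly all CPS1). Adipoq and Lep were not listed or at 0 in every table. Because these are bulk samples, fewer cells of a type and less RNA per cell cannot be told apart.

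The cultures differed in which receptors they expressed, as the plot of the mouse libraries shows. Compared per kilobase of exon, Pparg, Rxra and Esrra stood highest in untreated organoids of both lines. In 1027B controls the mean was 31.8 CPM per kb for Pparg, 19.2 for Rxra and 17.9 for Esrra. Nr1h3 followed at 4.40 and Nr1i2 at 0.515, and Ppara, Vdr, Nr5a2 and Nr1h4 each had at most 0.221 CPM per kb. The 3311 cell line had Pparg at 49.9 CPM per kb, Rxra at 28.7 and Nr1i2 at 25.0, then Nr1h3 at 14.7, Esrra at 9.38, Nr1h4 at 8.21 and Nr5a2 at 3.53. In 3311 controls the 2 libraries of Rxra spanned 148.6 and 164.8 CPM and those of Nr1i2 49.3 and 78.6 CPM, so Rxra and Nr1i2 overlap once divided by exon length (27.2 to 30.2 against 19.3 to 30.8 CPM per kb). Vdr was low in each mouse culture, from 0.00398 to 0.190 CPM per kb over the controls. The tables were normalized separately, so levels set across cultures are a description.

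**Figure D1:**
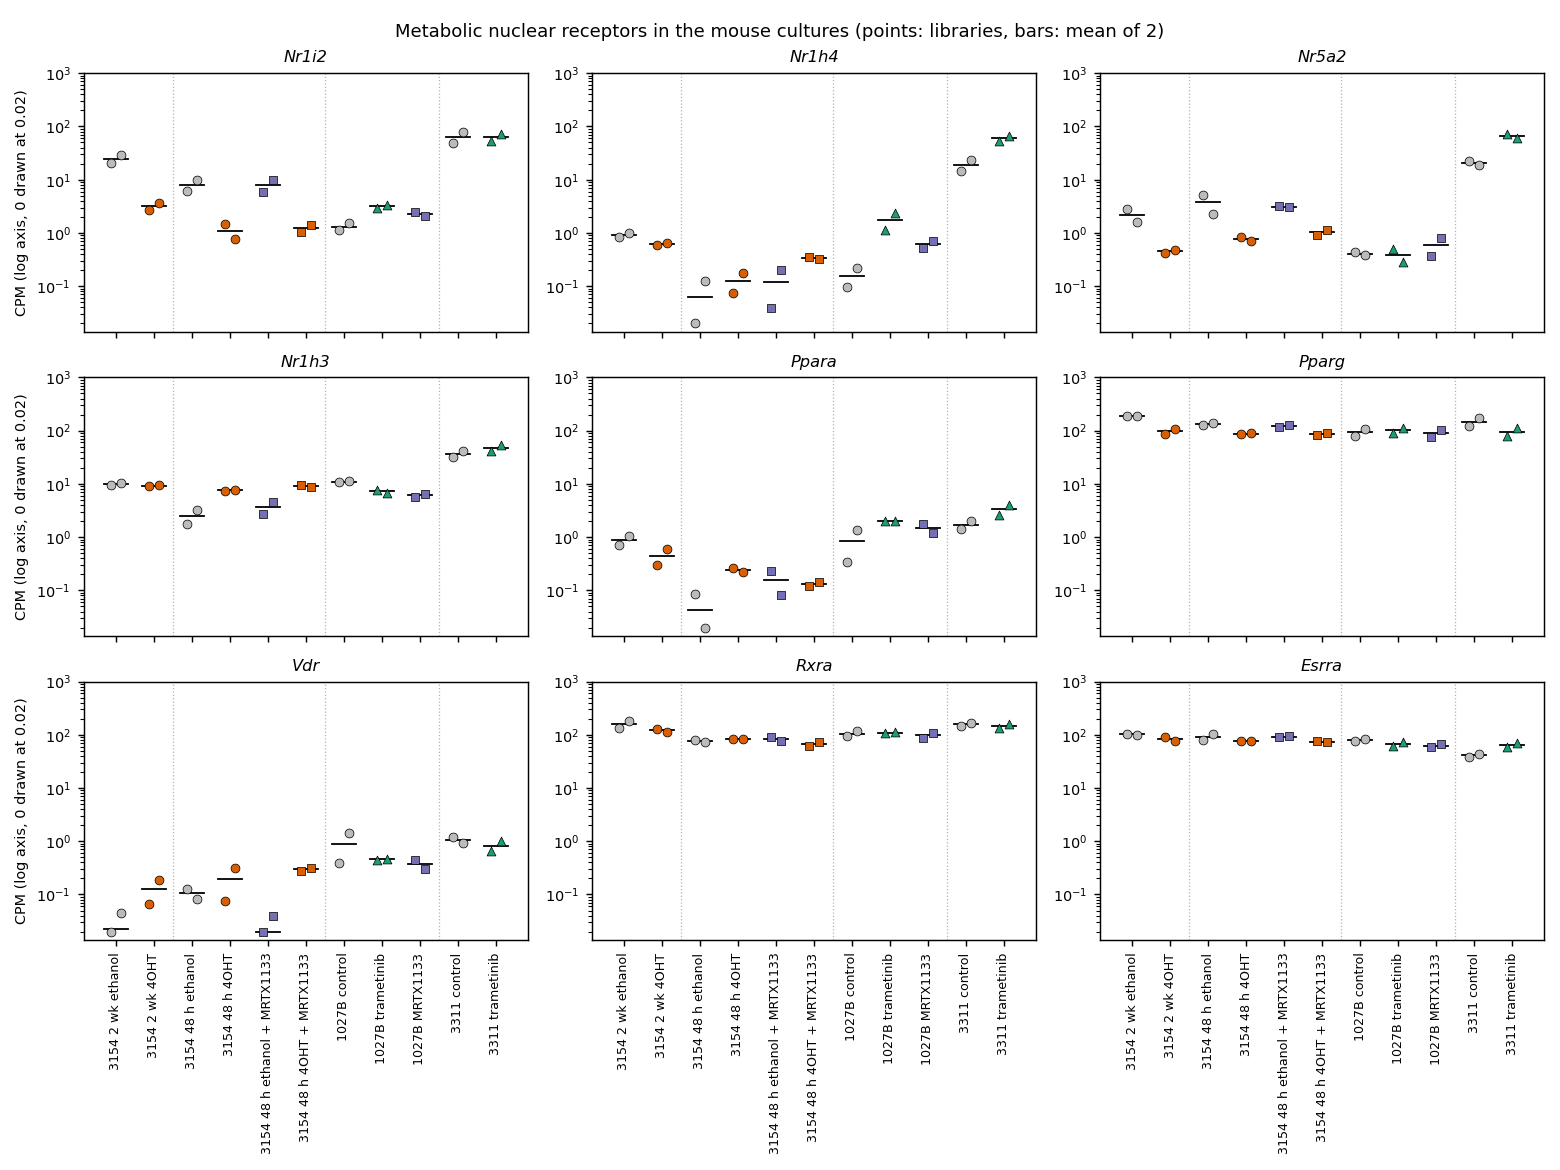
CPM (log axis) of 9 receptors in the 22 mouse libraries, with 1 point per library and a bar at the mean of each group of 2. In the 4OHT groups Nr1i2 sits between 0.759 and 3.67 CPM, below all ethanol libraries (5.97 to 28.5 CPM), and Nr1h4 and Nr5a2 are highest in 3311 with trametinib.

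Deletion of Hnf4a was followed by lower Nr1i2, Nr5a2 and Pparg in all 3 comparisons of 4OHT with ethanol. At 2 weeks these 3 of 8 tested receptors were called lower and none higher, where 9.81% of 14492 genes were called and 5.78% were called lower. In the 48-hour experiment without inhibitor, 3 of 6 tested receptors were lower and Nr1h3 was higher (31.0% of 15458 genes called, 15.7% lower and 15.3% higher). With MRTX1133 in both arms the same 4 receptors were called in the same directions (27.7% of genes called, 14.5% lower and 13.2% higher). The 2-week and 48-hour libraries are separate, and so are the libraries with and without MRTX1133.

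Nr1i2, the receptor for foreign compounds, changed most. At 2 weeks it stood at 20.3 and 28.5 CPM in ethanol and at 2.72 and 3.67 CPM after 4OHT, a log2 change of -2.93 ± 0.28 (SE, adjusted p 0.00795), or 7.63-fold lower. At 48 hours it stood at 6.06 and 9.69 CPM in ethanol and 1.44 and 0.759 CPM in 4OHT (log2 change -2.82 ± 0.41, adjusted p 0.00228). With MRTX1133 the values were 5.97 and 9.81 against 1.06 and 1.42 CPM (log2 change -2.66 ± 0.40, adjusted p 0.00269). The groups did not overlap in any of these comparisons, and Nr1i2 stayed called in all 10, 11 and 11 alternative fits of the 3 comparisons, single libraries left out included, with log2 changes between -3.37 and -2.26.

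Nr5a2, the bile acid and steroid synthesis regulator, fell from a low level. It stood at 2.84 and 1.57 CPM in ethanol at 2 weeks and at 0.427 and 0.487 CPM (13 counts in each library) after 4OHT, a log2 change of -2.27 ± 0.46 (adjusted p 0.0374). At 48 hours it stood at 5.26 and 2.22 CPM in ethanol and 0.834 and 0.714 CPM in 4OHT (log2 change -2.26 ± 0.43, adjusted p 0.0065). With MRTX1133 it stood at 3.18 and 3.06 against 0.907 and 1.14 CPM (log2 change -1.60 ± 0.41, adjusted p 0.0234). The groups did not overlap, but the call depended on single libraries. At 2 weeks it was lost without either 4OHT library (adjusted p 0.197 without replicate 1 and 0.139 without replicate 2) and without ethanol replicate 1 (0.0706). At 48 hours it was lost without 4OHT replicate 2 (0.0584), and with MRTX1133 it was lost without any 1 of the 4 libraries (0.0697 to 0.136). Nr1h4, the bile acid receptor, stood at 0.857 and 0.988 CPM in ethanol and 0.591 and 0.637 CPM after 4OHT at 2 weeks, which was not called (log2 change -0.58, adjusted p 0.369). At 48 hours it had 0 to 9 counts a library and was not tested.

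Nr1h3, the oxysterol receptor, was higher with 4OHT in the 48-hour experiment. It stood at 1.73 and 3.19 CPM in ethanol and at 7.43 and 7.63 CPM in 4OHT (log2 change 1.61 ± 0.33, adjusted p 0.00846), and with MRTX1133 at 2.76 and 4.54 against 9.62 and 8.62 CPM (log2 change 1.32 ± 0.31, adjusted p 0.0173). Both 4OHT libraries were above both ethanol libraries in each pair. At 2 weeks Nr1h3 stood at 9.43 and 10.2 CPM in ethanol and at 9.09 and 9.45 CPM after 4OHT, and these groups overlapped (log2 change -0.08, adjusted p 0.802). The 2 weeks minus 48 hours difference of these changes was -1.70 ± 0.41, which missed the threshold in the joint fit (adjusted p 0.0732, with 1.37% of 15326 genes called) and passed it with DESeq2 (0.00293) and without ethanol replicate 2 of the 48-hour experiment (log2 difference -2.22, edgeR adjusted p 0.0258). In the ethanol libraries of the 2 experiments Nr1h3 stood apart, at 9.43 and 10.2 CPM against 1.73 and 3.19 CPM. The rise at 48 hours was not called without 4OHT replicate 2 (adjusted p 0.0526), and with MRTX1133 it was not called without 4OHT replicate 1 (0.0959), 4OHT replicate 2 (0.0702) or ethanol replicate 1 (0.0869).

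Pparg, the lipid storage receptor, fell by a smaller amount from a high level. It stood at 190.1 and 187 CPM in ethanol at 2 weeks and at 87.7 and 109 CPM after 4OHT (log2 change -0.94 ± 0.15, adjusted p 0.02), or 1.92-fold lower. At 48 hours it stood at 128 and 142 against 84.6 and 88.3 CPM (log2 change -0.64 ± 0.13, adjusted p 0.00723). With MRTX1133 it stood at 117 and 125 against 81.4 and 91.8 CPM (log2 change -0.48 ± 0.12, adjusted p 0.0238). No groups overlapped. At 2 weeks the call was lost without 4OHT replicate 1 (adjusted p 0.102), at 48 hours without either 4OHT library (0.0779 and 0.065), and with MRTX1133 without any 1 of the 4 libraries (0.0625 to 0.175) and with upper-quartile scaling (0.0629). Ppara, the fatty acid oxidation receptor, stood at 0.725 and 1.03 CPM against 0.295 and 0.6 CPM at 2 weeks and was not called (log2 change -0.97, adjusted p 0.272). At 48 hours Ppara had 0 to 7 counts a library and was not tested. Rxra was not called at 2 weeks (137 and 185 against 128 and 113 CPM, log2 change -0.42, adjusted p 0.193), nor at 48 hours (log2 change 0.13, and -0.32 with MRTX1133 in both arms, adjusted p 0.146). Without ethanol replicate 1, Rxra at 2 weeks was called lower (log2 change -0.63, adjusted p 0.0407). Esrra moved by -0.28 to -0.31 on the log2 scale in the 3 comparisons and was not called in any, except at 48 hours without ethanol replicate 1 (log2 change -0.46, adjusted p 0.0272). Vdr had 0 to 9 counts a library in 3154 and was not tested.

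Markers of other cell types moved with the deletion. The macrophage or leukocyte list (4 of 6 markers with counts, Adgre1 and Marco not listed) summed to 129 to 264 CPM in ethanol and 54.0 to 82.1 CPM after 4OHT at 2 weeks, of which Mrc1 was 110 to 220 and 44.1 to 68.8 CPM. At 48 hours it summed to 53.2 to 70 CPM in ethanol and 28 to 31.9 CPM in 4OHT, and with MRTX1133 to 43.7 to 53.2 and 13.7 to 16.0 CPM. The sum follows Mrc1, called lower at 48 hours (log2 changes -1.18 and, with MRTX1133, -2.27) and not at 2 weeks (-1.54, adjusted p 0.059). The other members did not all have negative changes: at 2 weeks Csf1r was lower (-2.58) and Cd68 was at 0.31, and at 48 hours 2 of 4 tested markers, and 3 of 4 with MRTX1133, had positive changes, none of them called. Cidec, the listed marker of 4 on the adipocyte list, stood at 14.4 to 25.8 CPM in ethanol and 0.23 to 0.337 CPM after 4OHT at 2 weeks. At 48 hours Cidec stood at 3.37 to 6.42 against 0.0379 to 0.0446 CPM, and with MRTX1133 at 4.30 to 4.56 against 0 to 0.107 CPM, and it was called lower in all 3 comparisons. The hepatocyte list (Alb and F2 listed, Cps1 and Tat not) was at 20.2 to 68.4 CPM in ethanol and 2.89 to 6.56 CPM after 4OHT at 2 weeks, 1.26 to 1.51 and 0.134 to 0.531 CPM at 48 hours, and 1.77 to 1.91 and 0.0788 to 0.284 CPM with MRTX1133. F2 was called lower in all 3 comparisons, and Alb only with MRTX1133 (log2 change -3.74). With MRTX1133 the intestinal marker Cdx2 was also lower (log2 change -1.12, adjusted p 0.0358) and the fibroblast marker Col1a1 higher (0.115 to 0.121 against 0.426 to 0.473 CPM), and neither was called in the other deletion comparisons. The endothelial marker Pecam1 was lower at 2 weeks (log2 change -1.37, adjusted p 0.0394), where the endothelial list (2 of 3, Kdr not) summed to 5.08 to 5.93 CPM in ethanol and 2.17 to 2.51 CPM after 4OHT, and was not called at 48 hours. No epithelial marker of 4 was called in any of the 3. The part of these marker genes in the receptor changes was not tested.

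Genes that these receptors are known to control are read here beside the 9.81% of all genes called at 2 weeks (5.78% lower). Of 4 tested PXR targets 3 were lower and none higher, among them the drug export pump Abcb1a (63.5 and 117 against 16.2 to 21.7 CPM, log2 change -2.25, adjusted p 0.0178) and the transporter Abcc3 (log2 change -1.29, adjusted p 0.0253). Of 13 tested PPAR targets 5 were lower and none higher. Among them the fatty acid carrier Fabp1 went from 89 and 149 counts to 0 in both 4OHT libraries, and the peroxisomal enzyme Ehhadh was lower (log2 change -1.32, adjusted p 0.0202). Of 12 tested LXR targets 3 were lower, led by Abcg5 with 24 counts in each ethanol library and 3 and 6 after 4OHT, Pltp (log2 change -1.92) and Lpl (log2 change -1.37). Of 4 tested VDR targets the secreted protein Spp1 was higher (log2 change 3.72, adjusted p 0.0172) and the calcium-binding S100g lower (log2 change -2.68, adjusted p 0.0124), while Vdr itself had at most 5 counts a library. None of the 9 ERR alpha targets and none of the 3 tested bile acid genes was called by edgeR (0 and 1 at an unadjusted p under 0.05). Of 13 coregulators 2 were lower, and of 23 other nuclear receptors 2 were lower. In all genes tested the median log2 change was 0.02. It was -2.33 in the bile acid genes, -1.77 in the PXR, -0.73 in the PPAR, -0.59 in the LXR, -0.04 in the ERR alpha and 0.15 in the VDR targets, -0.16 in the coregulators and -0.23 in the other receptors.

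At 48 hours without inhibitor the lists held calls in both directions, where 15.3% of all genes were called higher and 15.7% lower. The LXR targets had 3 of 10 higher and 2 lower: the cholesterol exporter Abcg1 was higher (2.48 to 2.56 against 23.6 to 32.5 CPM, log2 change 3.47, adjusted p 0.000405), as was Lpl (log2 change 2.62), and Pltp was lower (log2 change -1.72). Lpl was thus called lower in the 2-week experiment and higher in the 48-hour experiment, for which the time since 4OHT is not given. The PPAR targets had 2 of 11 higher and 4 lower, with the hormone Fgf21 at 50 and 74 counts in ethanol and 0 in both 4OHT libraries, and the lipase inhibitor Angptl4 higher (log2 change 1.59, adjusted p 0.0157). Of 3 tested PXR targets Abcb1a (log2 change -1.55) and Abcc3 (log2 change -0.66) were lower. None of 3 bile acid genes was called by edgeR (1 at an unadjusted p under 0.05), 1 of 3 VDR targets was higher, and of 9 ERR alpha targets 1 was higher and 1 lower. With MRTX1133 in both arms (27.7% of all genes called) the LXR targets had 3 of 10 higher and 2 lower, the PPAR targets 1 of 11 higher and 3 lower, and the PXR targets 1 of 3 higher and 2 lower. The bile acid genes had 1 of 3 lower, the VDR targets 1 of 3 higher and the ERR alpha targets 1 of 9 lower. Abcg1 was again higher (log2 change 3.87, adjusted p 0.000298) and Abcb1a lower (log2 change -1.25, adjusted p 0.00239), while the drug-metabolizing Cyp2b10 was higher (0.919 to 1.08 against 5.32 to 5.52 CPM, log2 change 2.43, adjusted p 0.00113). Lpin1, a coactivator of PPARα with PGC-1α, was lower at 2 weeks (log2 change -2.02) and in both 48-hour comparisons (log2 changes -3.38 and -3.55). It was 1 of 2 coregulators called of 12 in each 48-hour comparison, both lower. Of all genes 31.0% and 27.7% were called there, 15.7% and 14.5% lower.

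**Figure D2:**
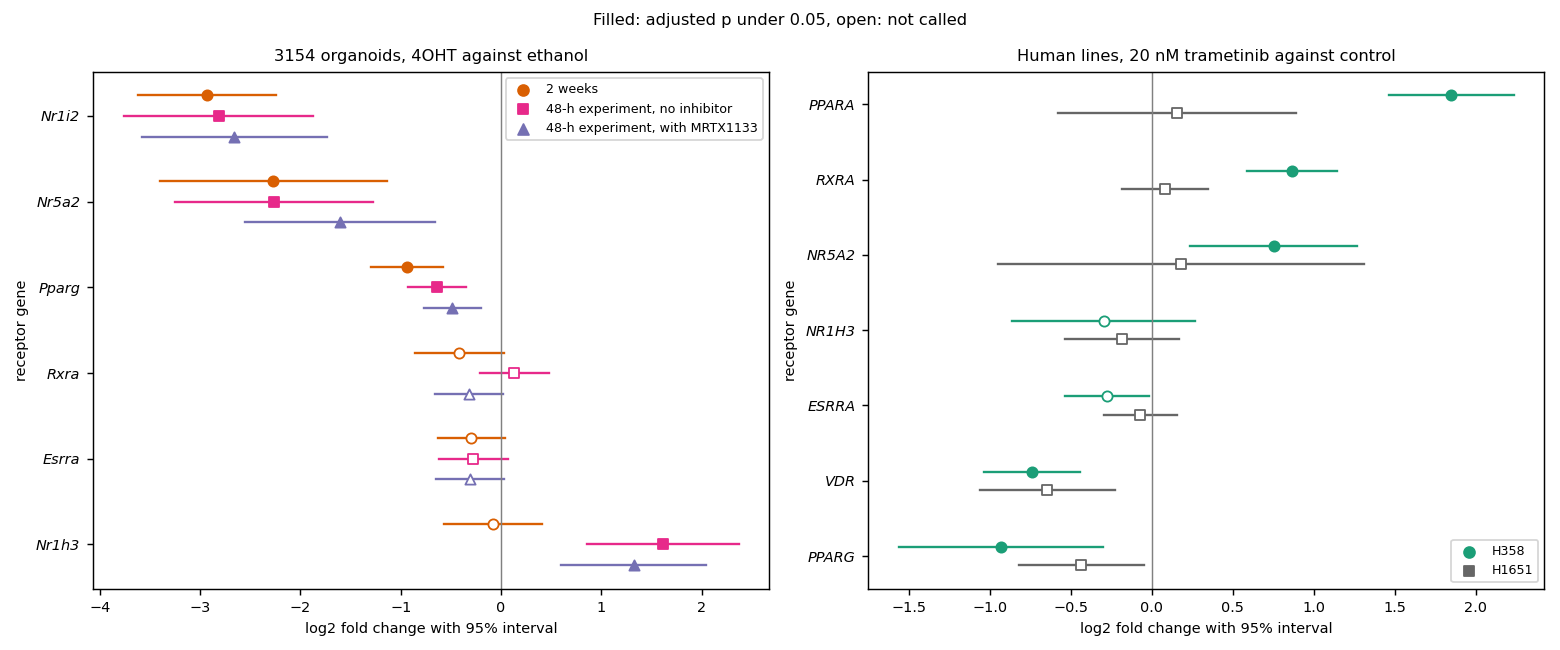
log2 fold change with 95% interval on the horizontal axis and receptors on the vertical axis, for 4OHT against ethanol in 3154 (left) and trametinib against control in the human lines (right). Filled symbols are called and open symbols are not. Nr1i2, Nr5a2 and Pparg lie left of 0 in all 3 deletion comparisons, and PPARA and RXRA lie right of 0 in H358 while their H1651 intervals include 0.

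No receptor of the set was called with 3 nM MRTX1133 in 3154. This held for 6 tested receptors in ethanol cultures (0.349% of genes called) and in 4OHT cultures (4.64% called). The largest shift in ethanol cultures was Nr1h3, from 1.73 and 3.19 to 2.76 and 4.54 CPM (log2 change 0.57, 95% interval -0.20 to 1.34, adjusted p 0.577), and those groups overlapped. Nr1i2 changed by 0.00 there (95% interval -0.81 to 0.81). In 4OHT cultures Rxra went from 85.1 and 83.4 to 60.5 and 72.5 CPM without overlap (log2 change -0.34, 95% interval -0.68 to 0.00, adjusted p 0.247), and was called when only those 2 groups were fitted (adjusted p 0.0408). A difference in the MRTX1133 response between ethanol and 4OHT cultures was not called for any receptor: the interaction was called for 0 of 15458 genes (0% called, edgeR), while 1150 genes had an unadjusted p under 0.05 and DESeq2 called 30.

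In 1027B organoids, Nr1i2 and Nr1h4 were the receptors called with MEK inhibition, the second from very few counts. With 10 nM trametinib, Nr1h4 and Nr1i2 were called higher of 9 tested receptors, and none was called lower (26.7% of 14555 genes called, 13.5% higher). Nr1h4 stood at 0.0969 and 0.217 CPM in controls (2 and 4 counts) and at 1.11 and 2.33 CPM (25 and 50 counts) with trametinib, a log2 change of 3.43 ± 0.65 (adjusted p 0.0113). Nr1i2 went from 1.11 and 1.52 to 2.98 and 3.31 CPM (log2 change 1.26 ± 0.32, adjusted p 0.0297). Neither gene's groups overlapped. The Nr1h4 call was lost without control replicate 1 (log2 change 2.95, adjusted p 0.0629) and without trametinib replicate 2 (log2 change 2.80, adjusted p 0.0511), and with a minimum of 10 counts in every library Nr1h4 was not tested. Nr1h4 passed the filter on low counts only through the drug-treated libraries, so its call and fold rest on 2 and 4 control counts and support no statement on the set. The Nr1i2 call was lost without any 1 of the 4 libraries (adjusted p 0.0599 to 0.123).

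Nr1h3 was the receptor that both drugs lowered in 1027B when replicate numbers were used as pairs. It stood at 11.0 and 11.1 CPM in controls, 7.75 and 6.72 CPM with trametinib and 5.72 and 6.48 CPM with 20 nM MRTX1133, with no overlap with the controls. Under MRTX1133 it was the 1 receptor of 9 called (log2 change -0.86 ± 0.19, adjusted p 0.0454), where 6.27% of genes were called and 3.26% lower, and under trametinib it missed the threshold (log2 change -0.61 ± 0.19, adjusted p 0.0501, and 0.0216 with the replicate block). The MRTX1133 call was lost without any 1 of the 4 libraries (adjusted p 0.139 to 0.237), with upper-quartile scaling (0.0521) and in a fit of the 2 groups alone (0.0717). A further 2 receptors passed under MRTX1133 with the block: Nr1h4, at 0.52 and 0.698 CPM (log2 change 1.97, adjusted p 0.0497, against 0.163 without the block), and Esrra, which went from 75.0 and 82.2 to 59.6 and 65.8 CPM (log2 change -0.33, adjusted p 0.019, against 0.182). The Nr1h4 value again rests on 2 and 4 control counts and supports no statement on the set.

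Ppara stood at 0.339 and 1.35 CPM in 1027B controls and, with trametinib, at 2.05 and 2.01 CPM (log2 change 1.27, adjusted p 0.158). With MRTX1133 it was at 1.75 and 1.20 CPM (adjusted p 0.469). Without control replicate 2 the trametinib change of Ppara was called (log2 change 2.58, adjusted p 0.0366). Pparg, Rxra, Nr5a2 and Vdr were not called with either drug. Pparg moved by 0.13 and -0.08 on the log2 scale and Rxra by 0.06 and -0.10. The 2 drugs share their control libraries, so they were also compared directly. No difference between 20 nM MRTX1133 and 10 nM trametinib was called for the 9 receptors, and 0 of 14555 genes were called (0% called, edgeR), while 2357 had an unadjusted p under 0.05, DESeq2 called 675 and the replicate block 2050. The widest gap was Nr1h4, with MRTX1133 below trametinib by a log2 difference of -1.50 (95% interval -2.76 to -0.25, adjusted p 0.244). The doses differ and the drugs act at different steps, so this compares the 2 treatments as given.

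Among the pathway genes of 1027B, trametinib took the cholesterol exporters Abcg5 and Abcg8 from 0 and from 1 and 2 counts to 74 and 303 and to 84 and 322 counts, and the bile acid exporter subunit Slc51a from 0 to 20 and 32 counts. These 3 genes had 0 to 2 control counts and passed the filter on low counts only through the drug-treated libraries. Their changes support no statement on the lists. The lipoprotein gene Apoe was lower (27.4 to 45.4 against 1.96 to 2.29 CPM, log2 change -4.10, adjusted p 0.00219). Where 26.7% of all genes were called and 13.5% called higher, 4 of 13 LXR targets were higher and 1 lower, and 4 of 11 PPAR targets were higher and 4 lower, with Fabp4 (log2 change -3.79) and Cd36 (log2 change -2.39) lower. With MRTX1133 (6.27% of all genes called), 3 of 13 LXR targets were higher and 1 lower, Apoe again lower (log2 change -2.52, adjusted p 0.0231), and 0 of 11 PPAR targets were called by edgeR, with 8 at an unadjusted p under 0.05. Trametinib also gave 1 of 2 bile acid genes higher, 1 of 2 PXR targets lower, 1 of 3 VDR targets higher and 1 lower, 2 of 9 ERR alpha targets lower, and 2 of 13 coregulators higher and 2 lower. Of the other nuclear receptors 8 of 24 were higher and 3 lower with trametinib, among them Thrb (log2 change 1.65) and Nr2f2 (log2 change 1.50). Hnf4a, which stood at 446 and 471 CPM in controls, was at 200.4 to 254 CPM with trametinib and 242 to 298 CPM with MRTX1133. The macrophage or leukocyte list (4 of 6 with counts, mostly Mrc1) summed to 72.2 to 118 CPM in controls, 11.8 to 15 CPM with trametinib and 26.4 to 32.2 CPM with MRTX1133. With trametinib Mrc1 (log2 change -3.72) and Ptprc (-2.78) were lower and Csf1r higher (2.58), and with MRTX1133 Mrc1 was the 1 of 4 called, lower (-1.87). The epithelial list (4 of 4) was 6492 to 6844 CPM in controls, 5986 to 6444 CPM with trametinib and 6079 to 6458 CPM with MRTX1133. Of its members Cdh1 was higher with trametinib (log2 change 0.56, adjusted p 0.0183), and Epcam (-0.42), Krt18 (-0.36) and Krt8 (-0.22) were not called. The part of these markers in the changes of the receptors and Apoe was not tested.

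In the 3311 cell line, 50 nM trametinib raised the bile acid receptor gene Nr1h4 and the genes Nr5a2 and Esrra. These were 3 of 9 tested receptors, all higher, where 39.0% of 15224 genes were called and 19.4% higher. Nr5a2 went from 22.9 and 18.8 to 73.3 and 60.0 CPM (log2 change 1.68 ± 0.18, adjusted p 0.00101), or 3.20-fold. Nr1h4 went from 14.5 and 23.3 to 54.1 and 66.1 CPM (log2 change 1.67 ± 0.24, adjusted p 0.00285), or 3.18-fold. Both were called in all 10 alternative fits each. Esrra went from 38.8 and 43.6 to 59.6 and 70.7 CPM (log2 change 0.66 ± 0.15, adjusted p 0.0142). The Esrra call was lost without control replicate 1 (adjusted p 0.0502) or trametinib replicate 2 (0.115). No called receptor had overlapping groups, which adds no support to the calls.

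The other 3311 receptors were not called. Nr1i2 stood at 49.3 and 78.6 CPM in controls and 54.5 and 71.9 CPM with trametinib, with the treated libraries inside the control range (log2 change -0.02, 95% interval -0.59 to 0.56). Pparg went from 124 and 171 to 80.8 and 110.3 CPM without overlap, just short of the threshold (log2 change -0.63 ± 0.21, adjusted p 0.0524). It was called lower with DESeq2 (0.0218), with RLE scaling (0.0471), without control replicate 1 (log2 change -0.84, 0.036) and without trametinib replicate 2 (log2 change -0.87, 0.00599). Ppara rested on low values, 1.41 and 2.03 against 2.58 and 4.07 CPM (log2 change 0.95, adjusted p 0.0986). Nr1h3 stood at 32.5 and 41.2 against 42.1 and 53 CPM, without overlap (log2 change 0.37, adjusted p 0.153), Rxra at 149 and 165 against 135 and 161 CPM, and Vdr at 1.23 and 0.916 against 0.645 and 0.989 CPM.

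The list counts in 3311 stand beside 39.0% of all genes called (19.4% higher). The bile acid genes had 3 of 6 higher and 1 lower. Higher were the ileal bile acid importer Slc10a2 (0.26 to 0.319 against 3.76 to 6.12 CPM, log2 change 4.08, adjusted p 0.00127), the exporter subunit Slc51a (1 and 4 against 45 to 61 counts) and the bile salt export pump Abcb11 (1 and 5 against 20 to 23 counts). These 3 genes had few control counts and passed the filter on low counts only through the trametinib libraries. Their calls and the list median therefore support no statement on the list. Of 13 LXR targets 5 were higher and 3 lower, and Abcg8 (log2 change 4.33), Abcg5 (log2 change 3.96) and Abca1 (log2 change 1.48) led the rise. Ppargc1a, the gene of PGC-1α and partner of ERRα, went from 3.98 to 5.97 CPM up to 69.2 to 96.4 CPM (log2 change 4.06, adjusted p 0.000349). Of 9 ERR alpha targets 4 were higher and none lower, with the Krebs cycle enzyme Idh3a first (log2 change 1.34, adjusted p 0.00231) and a median of 0.43 against 0.01 over all genes. All 4 tested VDR targets were called, 2 higher and 2 lower (median -0.73). Of 13 PPAR targets 4 were higher and 2 lower (median -0.20), of 4 PXR targets 1 was lower (median -0.45), and the medians were 1.42 in the bile acid genes and -0.06 in the LXR targets. Of 14 coregulators 4 were higher and 1 lower, and of 28 other nuclear receptors 6 were higher and 7 lower. In 1027B Idh3a was called lower with trametinib (log2 change -0.83, adjusted p 0.00473). Doses of trametinib differ between these cultures (10 and 50 nM), so the values are given side by side only. In 3311 the summed hepatocyte list (3 of 4 with counts, nearly all Alb) was 862 to 1046 CPM in controls and 306 to 712 CPM with trametinib. The macrophage or leukocyte list (3 of 6 with counts, Ptprc at 0) was 99.1 to 176 and 38.2 to 65.1 CPM, and intestinal Cdx2 112 to 132 and 190.1 to 212 CPM. Of the macrophage markers Mrc1 (log2 change -2.24) and Cd68 (-1.83) were lower and Csf1r higher (1.55), and of the hepatocyte markers F2 was lower (-2.67), Cps1 higher (2.55) and Alb not called. The epithelial list (4 of 4) was 5360 to 6227 CPM in controls and 3654 to 4556 CPM with trametinib, and Krt18 was the 1 of its members called (log2 change -1.43). Both tested intestinal markers were higher, Lct (log2 change 5.71) and Cdx2 (0.72), and of the fibroblast markers Col1a1 was higher (1.62) and Pdgfra lower (-0.84). Their part in the receptor changes was not tested.

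**Figure D3:**
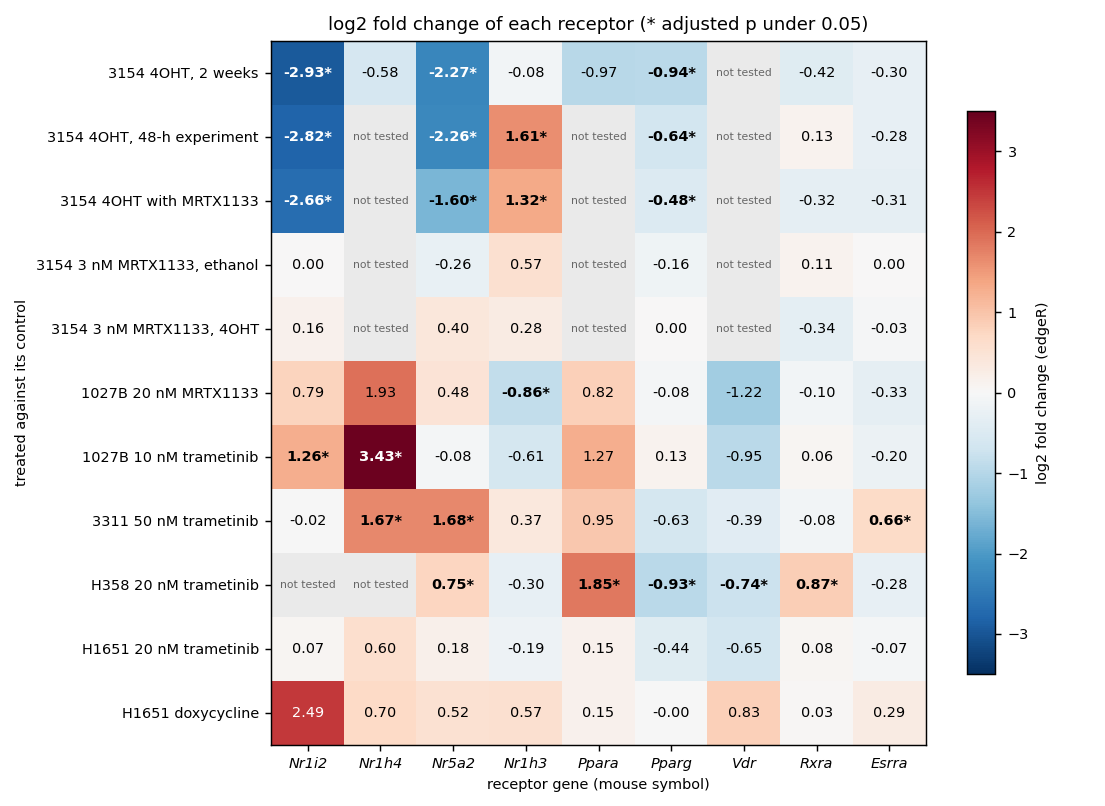
log2 fold change of each receptor (columns) in 11 comparisons of treated with control libraries (rows), with an asterisk and bold type where the adjusted p was under 0.05. Called falls sit in the 3 deletion rows for Nr1i2, Nr5a2 and Pparg, and the H1651 trametinib row holds no call.

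The human lines are plotted by library in the same way. H358 had no NR1H4 count in its 4 libraries, and 3 counts, the most that a count of 0 allows, equal 0.0645 to 0.118 CPM by library (counting error only). NR1I2 had 1 count in 1 of them, and these 2 receptors were not tested there. In H1651, NR1H4 stood at 1.46 to 15.7 CPM and NR1I2 at 0.114 to 1.61 CPM over the 8 libraries. RXRA led H358 controls at 123 and 148 CPM, followed by ESRRA at 57.0 and 52.1 CPM and VDR at 32.2 and 34.3 CPM. In H1651 controls PPARG (93.1 and 111 CPM) stood first and PPARA was high (75.0 and 48.9 CPM). These orders are by CPM and were not divided by gene length.

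**Figure D4:**
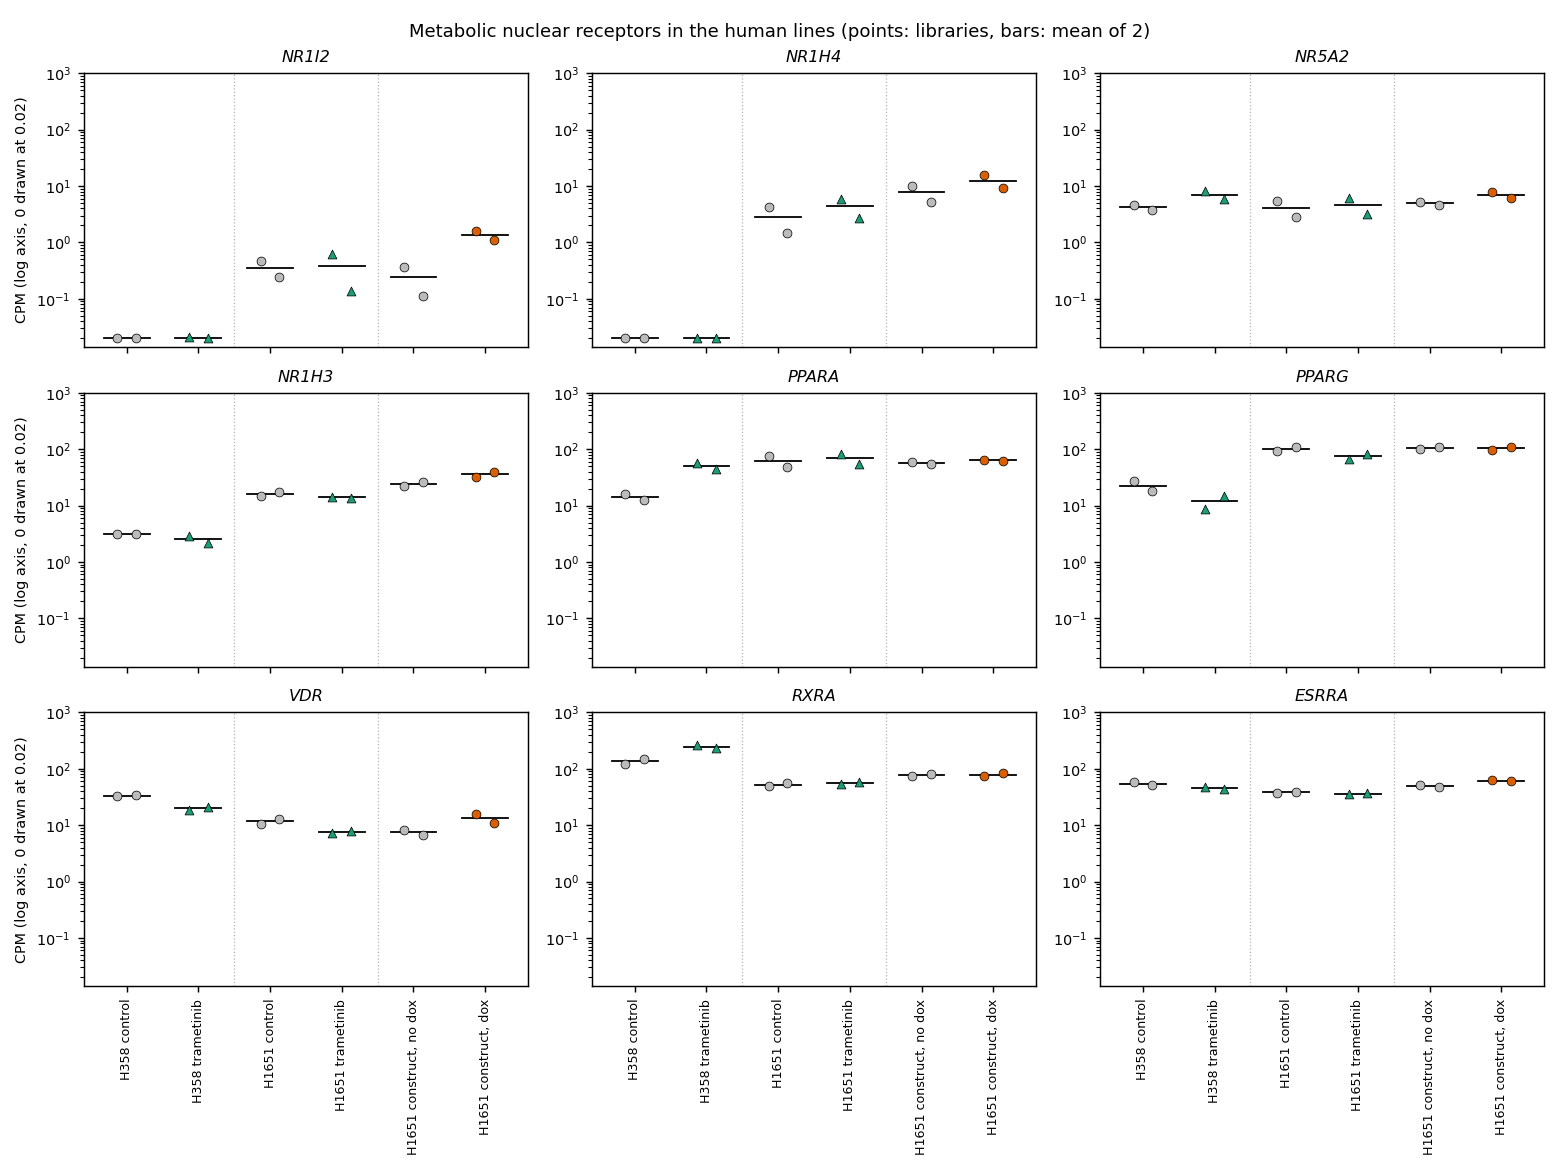
CPM (log axis) of 9 receptors in the 12 human libraries, with 1 point per library and a bar at the mean of each group of 2. PPARA rises in H358 with trametinib from 12.5 to 15.9 CPM up to 45.4 to 56.8 CPM, while the H1651 libraries stand at 48.9 to 83.7 CPM.

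In H358, 20 nM trametinib changed 5 of 7 tested receptors, a share to be read beside the 46.8% of 18972 genes called there (23.5% higher and 23.2% lower). PPARA, the fatty acid oxidation receptor, went from 15.9 and 12.5 to 56.8 and 45.4 CPM (log2 change 1.85 ± 0.17, adjusted p 0.000101), or 3.60-fold. RXRA, the common partner, went from 123 and 148 to 258 and 236 CPM (log2 change 0.87 ± 0.12, adjusted p 0.00077). VDR fell from 32.2 and 34.3 to 18.7 and 21.2 CPM (log2 change -0.74 ± 0.13, adjusted p 0.00233). These 3 calls held in all 10 alternative fits. PPARG fell from 27.0 and 17.9 to 8.81 and 15.0 CPM (log2 change -0.93 ± 0.27, adjusted p 0.0233), a call lost without control replicate 1 (log2 change -0.64, adjusted p 0.0885). NR5A2 rose from 4.56 and 3.79 to 8.06 and 5.93 CPM (log2 change 0.75 ± 0.22, adjusted p 0.0247), a call lost without control replicate 2 (adjusted p 0.117) or trametinib replicate 1 (log2 change 0.51, adjusted p 0.139). ESRRA stood at 57.0 and 52.1 against 46.6 and 43.3 CPM (log2 change -0.28, adjusted p 0.0747) and NR1H3 at 3.16 and 3.20 against 2.94 and 2.16 CPM (adjusted p 0.348).

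The same dose and time in H1651 called none of 9 receptors and 0 of 18277 genes (0% called, edgeR), while 597 genes had an unadjusted p under 0.05 and DESeq2 called 47. With the replicate number as a block, which no label states as a pairing, edgeR called 1881 genes and 3 receptors. These were PPARG (log2 change -0.44, adjusted p 4.96e-08), VDR (-0.64, 8.95e-06) and NR1H4 (0.63, 0.00362). The values that follow are without the block. VDR stood at 10.5 and 12.9 CPM in controls and 7.17 and 7.74 CPM after the drug without overlap (log2 change -0.65, 95% interval -1.06 to -0.23, adjusted p 0.999). PPARG stood at 93.1 and 111 against 67.0 and 83.6 CPM without overlap (log2 change -0.44, 95% interval -0.82 to -0.05). PPARA stood at 75.0 and 48.9 against 83.7 and 54.1 CPM, and these groups overlapped (log2 change 0.15, 95% interval -0.58 to 0.89). For NR1H4, NR1I2, NR5A2 and PPARA, replicate 1 was above replicate 2 in both groups.

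PPARA and RXRA differed between the lines in their response. A joint fit of both tables gave a log2 difference, H358 minus H1651, of 1.72 ± 0.37 for PPARA (adjusted p 0.0143) and 0.81 ± 0.17 for RXRA (adjusted p 0.0138). These were 2 of 9 receptors, with 19.3% of 21188 genes called (9.43% with a positive difference). The 9 include NR1H4 and NR1I2, with 0 counts and 1 count in H358. Both entered the joint fit through H1651 alone and could show no difference. Both PPARA libraries with trametinib were above both controls in H358, while in H1651 the groups overlapped. The PPARA difference was lost without H358 control replicate 2 (adjusted p 0.0665) or H358 trametinib replicate 1 (0.0555), and the RXRA difference without H358 control replicate 1 (0.0574) or H358 trametinib replicate 1 (0.0537). VDR had log2 changes of -0.74 in H358 and -0.65 in H1651, with a log2 difference of -0.07 (95% interval -0.52 to 0.38). The PPARG difference was not called (log2 difference -0.48, 95% interval -1.31 to 0.35, adjusted p 0.41).

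Pathway genes in H358 moved both ways, in a comparison where 23.5% of all genes were called higher and 23.2% lower. Of 10 ERR alpha targets 1 was higher, PERM1 (log2 change 3.99, adjusted p 0.000292), and 6 were lower, among them CYCS (log2 change -1.01) and SDHB (log2 change -0.80), while the coactivator gene PPARGC1A rose from 2.96 to 3.44 CPM up to 14.3 to 16.6 CPM (log2 change 2.27, adjusted p 5.81e-05). Of 10 PPAR targets 2 were higher, among them the acylcarnitine carrier SLC25A20 (log2 change 1.17), and ANGPTL4 was lower (112 and 131 against 3 and 5 counts). Of 10 LXR targets 4 were higher and 3 lower: APOE rose (log2 change 1.89, adjusted p 3.59e-05), and the fatty acid synthesis genes FASN (log2 change -2.00) and SCD (log2 change -1.80) fell. The bile acid hormone gene FGF19 was lower (log2 change -4.54, adjusted p 0.00115) although no NR1H4 was counted, and all 4 tested bile acid genes were called, 1 higher and 3 lower. Of 2 PXR targets 1 was lower, of 14 coregulators 5 were higher and 3 lower, and of 29 other nuclear receptors 12 were higher and 5 lower. Of 4 VDR targets 2 were lower, SPP1 (log2 change -2.01) and the calcium pump ATP2B1 (log2 change -1.85). Over all genes the median log2 change was 0.02. It was -1.17 in the VDR, -1.14 in the PXR, -0.52 in the ERR alpha, -0.22 in the LXR and 0.25 in the PPAR targets, and -0.82 in the bile acid genes. The fibroblast list (5 of 5 with counts) summed to 33.1 to 37.3 CPM in H358 controls and 119 to 148 CPM with trametinib, nearly all COL1A1. The endothelial list (3 of 3) summed to 11.6 to 14.2 and 20.8 to 21.0 CPM and the epithelial list to 4216 to 4310 and 2509 to 2916 CPM. Of the epithelial markers KRT18, KRT8 and EPCAM were lower and CDH1 was higher (log2 change 1.05), and PTPRC of the leukocyte list was higher (1.87). The part of these markers in the changes was not tested.

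Induction of HNF4α in H1651 called none of the 9 tested receptors, where 1.42% of 17351 genes were called. At an unadjusted p under 0.05 stood 5 receptors, all with positive log2 changes, beside 2203 of the 17351 genes at that level. NR1I2 had the largest estimate, from 0.371 and 0.114 CPM (9 and 3 counts) to 1.61 and 1.10 CPM (41 and 25 counts), without overlap (log2 change 2.49, 95% interval 1.19 to 3.78, adjusted p 0.0944). NR1I2 passed the filter on low counts only through the doxycycline libraries, so this estimate rests on 9 and 3 counts. With 1 library left out it ran from 1.87 to 3.52. VDR stood at 8.33 and 6.60 against 15.6 and 10.9 CPM (log2 change 0.83, adjusted p 0.136, and 0.0371 with DESeq2) and NR1H3 at 22.4 and 26.1 against 32.1 and 39.9 CPM (log2 change 0.57, adjusted p 0.111, and 0.0271 with DESeq2), both without overlap. NR5A2 stood at 5.19 and 4.62 against 7.82 and 6.22 CPM (log2 change 0.52, adjusted p 0.304) and ESRRA at 50.9 and 48.2 against 62.0 and 59.4 CPM (log2 change 0.29, adjusted p 0.142). PPARG had overlapping groups (99.2 and 108 against 96.5 and 110.4 CPM, log2 change 0.00, 95% interval -0.22 to 0.21). NR1H4 stood at 10.2 and 5.23 against 15.7 and 9.23 CPM (log2 change 0.70, adjusted p 0.481).

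Leaving out 1 library moved some of these past the threshold. Without the no-doxycycline replicate 1, NR1I2 (log2 change 3.52), NR1H4 (1.25) and VDR (1.01) were called. For NR1I2 that fit left 1 control library of 3 counts, so its call supports no statement on the set. VDR was also called without doxycycline replicate 2 (log2 change 1.07, 0.0127), and NR1H3 without doxycycline replicate 1 (log2 change 0.72, 0.0276) or no-doxycycline replicate 2 (log2 change 0.69, 0.0497). Among pathway genes, 1 of 5 PXR targets was called, the drug pump ABCB1, which rose from 19.8 to 21.1 CPM up to 63.9 to 69.0 CPM (log2 change 1.70, adjusted p 0.000759). The bile acid exporter subunit SLC51B (log2 change 1.98, adjusted p 0.0186), the peroxisomal enzyme EHHADH (log2 change 0.65, adjusted p 0.0148) and APOE (log2 change 1.03, adjusted p 0.0484) rose, and CD36 fell (log2 change -1.45, adjusted p 0.0125). These were 1 of 7 bile acid genes, 1 of 11 LXR targets and 2 of 12 PPAR targets, and edgeR called none of 4 VDR and 9 ERR alpha targets and 14 coregulators (1 of each list at an unadjusted p under 0.05). The summed fibroblast list (5 of 5 with counts, mostly COL3A1) was 504 to 548 CPM without doxycycline and 312 to 326 CPM with it. The epithelial list (4 of 4) was 4412 to 4415 and 5709 to 6196 CPM, the adipocyte list (2 of 4, ADIPOQ and LEP not listed or at 0) 3.05 to 3.74 and 6.45 to 11.0 CPM, and the intestinal list (2 of 4) 6.47 to 8.21 and 10.1 to 10.2 CPM. The part of these markers in the receptor values was not tested.

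Abcb1a in mouse and ABCB1 in human, the pump that PXR is known to induce, can be set beside its receptor in the 4 comparisons of Hnf4a level. Abcb1a was called lower in the 3 deletion comparisons, in which Nr1i2 was called lower. ABCB1 was called higher with doxycycline, in which NR1I2 had a positive log2 change that was not called. That NR1I2 change rested on 9 and 3 counts without doxycycline. With trametinib in 1027B the signs were opposite, with Nr1i2 called higher and Abcb1a called lower (log2 change -0.69, adjusted p 0.0192).

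For the receptors tested in all 4 mouse tables, the genes whose levels followed them most closely over the 22 mouse libraries were also found. The measure was Pearson r of log2 CPM centred within each table, among 12598 genes tested in all 4 mouse tables. Nr1h4, Ppara, Vdr and Nr0b2 were not among these receptors. For Nr1i2 they were Otc, a urea cycle enzyme (r = 0.967), and Gm5485 (r = 0.957). For Nr5a2 they were Rmnd5a (r = 0.893) and the cholesterol carrier Stard4 (r = 0.888), and for Pparg 4931406C07Rik (r = 0.923) and the carbonyl reductase Cbr1 (r = 0.913). For Nr1h3 they were Hsd17b11 (r = 0.911) and P2rx4 (r = 0.91), for Esrra Frat1 (r = 0.904) and Zfp706 (r = 0.882), and for Rxra Evpl (r = 0.818) and Lmbrd2 (r = 0.8). Among the receptors themselves Nr1i2 and Pparg had r = 0.789, Nr1i2 and Nr5a2 had r = 0.733, and Nr1i2 and Nr1h3 had r = -0.604. The libraries share cultures, tables and controls, so these values describe this set only.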

How the data were processed

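The 7 tables deposited by the authors hold whole-number read counts for each Ensembl gene, with its symbol and without normalization. Per the submitters' processing notes, cutadapt 3.5, STAR 2.7.6a and featureCounts 1.6.3 were used, and the builds mm10, mm39 and hg38 are named without roles. The strand setting of the counting is not given in the sources used here. Esrra shares 2.07% of its exon bases with Mir6990 on its strand and 1.66% with Trmt112 on the other, and Nr1h3 shares 1.35% with Gm13783. Libraries were poly(A)-selected, strand-specific and read from both ends, per the labels. The columns of the 3311 table carry no line name and were assigned from the table. An allele of the genotype labels and some list genes are not reported here.

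Each table was fitted alone in R 4.3.3 with edgeR 4.0.16: filterByExpr, TMM and the quasi-likelihood F-test, with Benjamini-Hochberg adjustment over all genes tested and a threshold of 0.05. Differences between tables came from joint fits. Genes with few counts in 1 group could pass the filter through the other group alone, so their calls and folds rest on few counts. Changes are log2 fold changes with standard errors from the F statistic and 95% intervals. Exon lengths came from GENCODE M21. The fits were tested on simulated data. Other settings tried were upper-quartile or RLE scaling, DESeq2 1.42.0, no filter on counts, at least 10 counts in every library, the replicate number as a block, a fit of the 2 groups compared, and leaving out each library. Groups hold 2 libraries, and nothing says that these come from separate cultures or animals, so p-values measure only the spread between the libraries, which may be technical. A lone library was assumed to vary like the other groups.

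In 1027B the replicate numbers were also used as pairs, because same-numbered libraries deviated together in all 3 pairs of groups (correlations 0.372, 0.243 and 0.414). The labels state no pairing, and same-numbered libraries correlated more strongly in H1651 with trametinib (0.623). Blocked values stand beside the 1027B results they change and beside trametinib in H1651. The members and pathway lists were chosen with earlier results of these data known. Named genes are the receptors, Hnf4a and, from each list and comparison, up to 3 called genes with the largest change, from which a selection is printed. Alike genes are the 2 with the highest r. Replicates differed beyond counting noise in every group (chi-square per degree of freedom 4.99 to 69.7). Promoters came from RefSeq (GRCm38.p6).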

Additional observations from a re-analysis of the deposited data

Results flagged for a closer look

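The trametinib response of PPARA differed between the human lines in a test of the difference itself, with a log2 difference of 1.72, H358 minus H1651. The same test gave 0.812 for RXRA. Both lines had 20 nM for 48 hours.

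Selected pairs of mouse comparisons, and not the human lines, were also searched for opposite shifts. In 3 cases every treated library lay on one side of its controls in one culture and on the opposite side in another. The difference was not tested. With 2 libraries a group such cases also arise by chance, and their share over all genes was not counted. With trametinib, Esrra had a log2 change of 0.66 in 3311 (called) and -0.20 in 1027B (not called, edgeR adjusted p 0.281), a gap of 0.861. Nr1h3 had 0.37 in 3311 and -0.61 in 1027B, neither called, with a gap of 0.979. With the replicate block, the change of Nr1h3 in 1027B was called (edgeR adjusted p 0.0216). With MRTX1133, Nr1h3 had 0.28 in 3154 cultures that had 4OHT (3 nM, not called, edgeR adjusted p 0.654) and -0.86 in 1027B (20 nM, called), with a gap of 1.14. The doses differ in all 3 cases.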

How the results depend on the processing

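Of 116 log2 changes of receptors 24 were called. Over 258 alternative values of these 24, 217 kept the call, 41 lost it and 0 reversed, and leaving out 1 library accounted for 38 of the losses. Of 1022 alternative values of uncalled changes 34 became called, and 76 differed in sign with neither value called. DESeq2, RLE factors and no filter kept all 24, and upper-quartile factors kept 22.

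Genes called at 2 weeks numbered 1421, and 2337 with DESeq2. In the 48-hour experiment a fit of the 2 groups compared called 3154 genes in place of 4795 for 4OHT, 0 in place of 54 for MRTX1133 in ethanol, and 3932 in place of 717 (with 1 receptor, Rxra) for MRTX1133 in 4OHT. DESeq2 called 319 and 1291 for the latter 2 and 30 for the interaction, in place of 0. In 1027B, DESeq2 called 1593 genes with MRTX1133 in place of 913, and 675 between the drugs, where the 2-group fit called 1. Receptors called were 1 with at least 10 counts (trametinib, in place of 2) and 0 with upper-quartile factors or the 2-group fit (MRTX1133, in place of 1). In H1651, trametinib called 47 genes with DESeq2 and 2 with no filter, in place of 0, and doxycycline 441 with DESeq2 in place of 247, with 2 receptors in place of 0. Between 2 weeks and 48 hours DESeq2 called 747 genes in place of 210, with 1 receptor.

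With the replicate block, genes called were 4563 at 2 weeks, 6540 with trametinib and 3515 with MRTX1133 in 1027B (3 receptors in place of 1), 2050 between the drugs, 1881 with trametinib in H1651 (3 receptors, NR1H4, PPARG and VDR), 3048 with doxycycline (6 receptors in place of 0), 8472 between the human lines in place of 4087, and 596 between 2 weeks and 48 hours (1 receptor). All 24 calls were kept and 16 were gained. In every culture the libraries share only a replicate number, and no label states a pairing. Outside 1027B the correlations of same-numbered libraries were 0.427 in 3154 at 2 weeks, -0.251 to 0.549 at 48 hours, 0.126 in 3311, 0.318 in H358, and 0.623 and 0.318 in H1651. The cause of these shifts was not tested.

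Leaving out 1 library gave 395 to 2790 genes and 1 to 3 receptors at 2 weeks, 1668 to 5964 and 1 to 5 at 48 hours, and 1745 to 2805 and 1 to 2 with MRTX1133 in both arms. For MRTX1133 in 3154 it gave 0 to 309 genes in ethanol and 0 to 23 in 4OHT. In 1027B it gave 1336 to 2754 genes and 0 to 2 receptors with trametinib, 138 to 349 and 0 with MRTX1133, and 0 to 2 genes between the drugs. It gave 3772 to 6298 genes in 3311, 6682 to 9265 genes and 4 to 5 receptors in H358, 0 to 193 genes with trametinib in H1651, and 232 to 412 genes and 1 to 3 receptors with doxycycline. Between the human lines it gave 2177 to 3667 genes and 0 to 2 receptors, and between 2 weeks and 48 hours 2 to 386 genes and 0 to 1 receptor. Nr0b2, Vdr in 3154, Nr1h4 and Ppara in 3154 at 48 hours, and NR1H4 and NR1I2 in H358 had too few counts at these depths to pass the filter and were not tested.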
